A study of Mus musculus with 12 samples.

Results

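Retinoic acid synthesis and signalling was followed through 9 named genes: the aldehyde dehydrogenases *Aldh1a1*, *Aldh1a2* and *Aldh1a3*, the hydroxylase *Cyp26b1*, the binding proteins *Crabp1* and *Crabp2*, and the receptors *Rara*, *Rarb* and *Rarg*. All 9 were found among the 54352 gene symbols counted, and all 9 passed the filter on low counts in each of the 5 comparisons. The data are bulk RNA-seq of primary adventitial fibroblasts, cells that lay down the connective tissue around the vessel, grown out of tissue pieces of wild-type (WT) C57Bl/6 mice whose age the labels give as 14 weeks; the study's methods give a lower age, describe the mice as male and include the aortic root with the ascending aorta. For 48 h, cells from the ascending aorta and from the descending aorta, kept in medium with 5% FBS, were given 10 ng/mL of mouse TGFβ or the solute alone (0 ng/mL). This gave 4 groups of 3 libraries, called here descending control, descending TGFβ, ascending control and ascending TGFβ. All 12 carry the same batch in the labels. The labels do not say whether the 3 libraries of a group came from separate animals or cultures, so the p-values measure only the spread between these libraries, which may be technical. The study asked whether the response to TGFβ depends on the vascular site of origin.

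Retinoic acid is made from vitamin A: retinol is oxidised to retinal by dehydrogenases, and the ALDH1A enzymes oxidise retinal to retinoic acid. CYP26 enzymes break it down, CRABP proteins carry it in the cytosol, and in the nucleus it binds the retinoic acid receptors RARα, RARβ and RARγ, which act as pairs with retinoid X receptors (RXR) on retinoic acid response elements in DNA. The pathway is known for its part in patterning the embryonic outflow tract and great arteries. *Aldh1a2* is the main embryonic source of retinoic acid and is known to be expressed by the epicardium and mesothelium, and *Rarb* is a classical target gene of the pathway itself.

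Of the 9 genes, 7 had a promoter in the RefSeq table for GRCm38.p6, the assembly also known as mm10; *Aldh1a3* and *Crabp2* had no entry. The 250 bases before the RefSeq start site are shown for *Rarb*, whose level changed most with TGFβ in ascending fibroblasts, and for *Cyp26b1* and *Aldh1a2*, the pair called lower in descending fibroblasts with all libraries. In the *Rarb* sequence capitals mark a retinoic acid response element of the DR5 type, a direct repeat of the half-site that RAR and RXR bind, with 5 bases between the repeats. Capitals are absent from the other sequences because no such repeat was found there.
*Rarb*, chr14:16575477-16575726, minus strand: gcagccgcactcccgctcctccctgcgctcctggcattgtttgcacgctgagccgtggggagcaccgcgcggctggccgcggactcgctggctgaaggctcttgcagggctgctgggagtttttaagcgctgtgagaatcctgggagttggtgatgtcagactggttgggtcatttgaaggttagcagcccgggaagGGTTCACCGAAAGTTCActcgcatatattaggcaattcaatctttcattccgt
*Cyp26b1*, chr6:84593811-84594060, minus strand: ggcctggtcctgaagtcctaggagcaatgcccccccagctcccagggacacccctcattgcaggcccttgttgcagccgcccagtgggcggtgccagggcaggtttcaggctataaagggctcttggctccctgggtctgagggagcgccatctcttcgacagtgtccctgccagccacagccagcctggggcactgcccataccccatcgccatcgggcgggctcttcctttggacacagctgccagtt
*Aldh1a2*, chr9:71215539-71215788, plus strand: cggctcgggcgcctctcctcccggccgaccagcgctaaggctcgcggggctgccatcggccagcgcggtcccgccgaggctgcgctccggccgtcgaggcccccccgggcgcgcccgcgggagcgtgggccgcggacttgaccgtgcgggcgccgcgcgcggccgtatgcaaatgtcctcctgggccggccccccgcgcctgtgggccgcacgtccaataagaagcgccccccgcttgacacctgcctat

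The element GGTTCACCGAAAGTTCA lies from base -53 to base -37 relative to the *Rarb* start. The search took the half-site AGGTCA, with A or G as the first base and G or T as the third, on both strands and in a tandem pair with 1, 2 or 5 bases between them. A pair with 5 bases between occurred in 0.0883% of the 32851 promoters of the table, one with 1 base in 0.164% and one with 2 bases in 0.174%. Among the genes followed here *Rarb* was the single one with any of the 3 arrangements. The 7 genes had 12 promoter entries, since some had more than 1. A lone AGGTCA, which 14.0% of promoters hold, was found in *Rarg*, only in the entry at chr15:102257523-102257772. TATAAA, held by 12.4%, was found in *Cyp26b1*. The AP-1 site TGANTCA, held by 6.75%, was found in *Aldh1a1*, in the entry at chr19:20492333-20492582 and not in that at chr19:20601718-20601967. The SMAD palindrome GTCTAGAC, held by 0.167%, was found in none of the 7. These are matches of letters and not measured sites. The *Rarb* start used by RefSeq lies inside the gene span of the GENCODE annotation, chr14:16430839-16819156, and the counts, which are per gene, do not tell its promoters apart.

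The libraries held between 16250126 and 23892943 counts on genes. Levels are given as normalized CPM, counts scaled by library size and corrected for library composition, and 3 counts were set as the floor of detection, which lay between 0.117 and 0.207 CPM and covers counting error only. The descending control replicate 3 stood apart from the other 11 libraries: at least 1 count was found on 13031 genes, against 19337 to 20931, and mitochondrial genes took 11% of its counts, against 0.703 to 1.03%. Tests that use descending control are therefore given with and without it, while the levels of cell markers include it unless stated. The fibroblast markers *Col1a1*, *Col1a2*, *Pdgfra*, *Dcn*, *Lum* and *Thy1* were above the floor in all 12 libraries, with a summed level of 10957 to 23711 CPM. In bulk RNA, fewer cells that express a gene and less RNA per cell cannot be told apart.

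Per kilobase of exon, *Aldh1a1* was the most abundant of the 9 genes in each of the 4 groups and *Rarb* the least. In ascending control the order of group means, in CPM per kilobase, was *Aldh1a1* at 91.0 ± 2.5 (SD, n = 3), *Rarg* at 31.9 ± 1.3, *Aldh1a2* at 12.6 ± 0.33, *Cyp26b1* at 9.63 ± 1.4, *Rara* at 8.06 ± 0.079, *Aldh1a3* at 5.54 ± 0.45, *Crabp2* at 2.91 ± 0.11, *Crabp1* at 1.95 ± 0.80 and *Rarb* at 0.207 ± 0.045. Neighbours in this order did not overlap between libraries, although the highest *Crabp1* library, at 2.73, lay just below the lowest *Crabp2* library, at 2.79. Such overlap covers the spread between libraries only. Exon length was that of all annotated exons of a gene together, whichever transcripts the cells expressed, and the order between genes depends on it. In descending TGFβ the order differed: *Crabp2*, at 15 ± 1.1, and *Rara*, at 12.9 ± 0.55, followed *Rarg*, and *Aldh1a2* came last before *Rarb* at 1.74 ± 0.23. In ascending TGFβ the libraries of *Aldh1a2*, at 11.1 ± 1.2, overlapped with those of *Crabp2*, at 10.1 ± 1.6, which in turn reached those of *Rara*, at 8.84 ± 0.30, and those of *Crabp1*, at 2.87 ± 1.1, with those of *Aldh1a3*, at 2.86 ± 0.49. In descending control, *Crabp1*, *Aldh1a2*, *Crabp2* and *Aldh1a3* lay between 4.61 and 2.89 and neighbours in that order overlapped. That order and overlap rested on replicate 3: without it *Crabp1* lay at 5.46, *Aldh1a2* at 4.72, *Aldh1a3* at 3.52 and *Crabp2* at 1.57 (n = 2), and no neighbours among them overlapped.

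**Figure D1:**
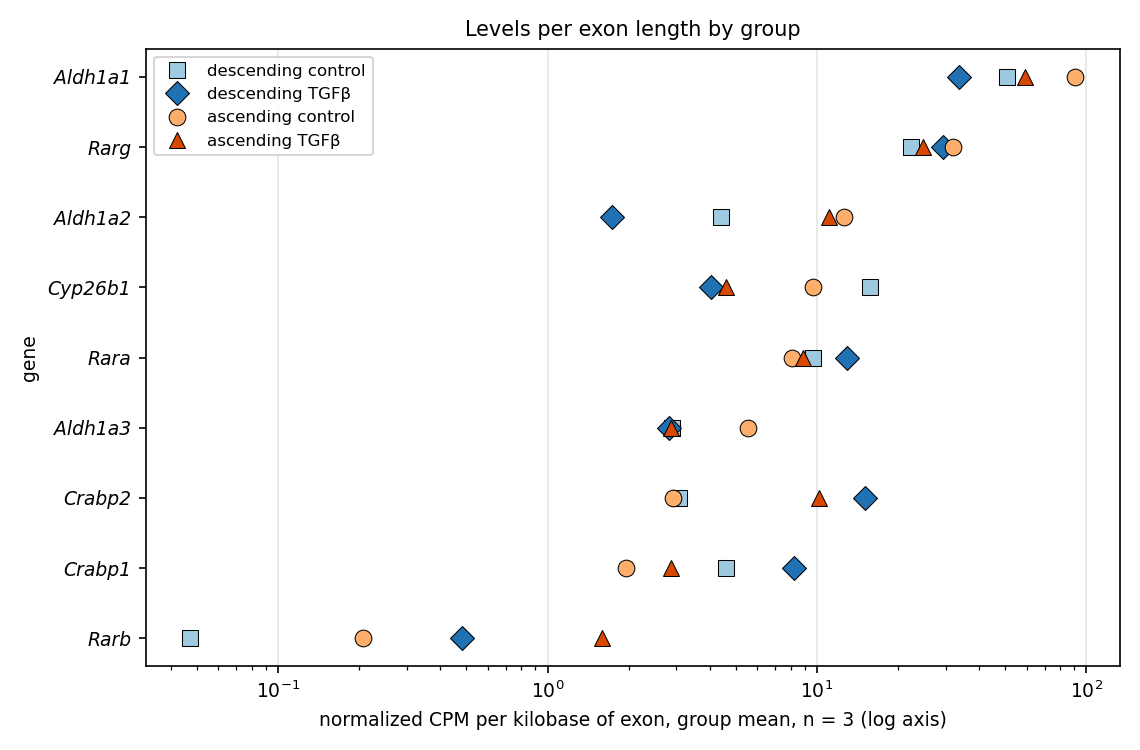
Group means of the 9 genes in normalized CPM per kilobase of exon on a log axis, 3 libraries per group, ordered by ascending control. *Aldh1a1* is highest in each group, from 33.7 in descending TGFβ to 91.0 in ascending control, and *Rarb* lowest, from 0.0471 in descending control (0.0707 without replicate 3) to 1.59 in ascending TGFβ.

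*Aldh1a1* thus made up most of the retinal-oxidising ALDH1A message. Its share of the summed per-kilobase level of the 3 enzymes was 83.4% ± 0.41 in ascending control, 81.0% ± 2.0 in ascending TGFβ, 85.8% ± 6.6 in descending control and 88.1% ± 0.42 in descending TGFβ (SD, n = 3 each). Without replicate 3 the share in descending control was 82.0% ± 0.11 (SD, n = 2). *Aldh1a2* held 15.1% ± 1.4 of it in ascending TGFβ and 4.55% ± 0.67 in descending TGFβ, without overlap between the libraries. Its share differed less without TGFβ, at 11.5% ± 0.40 in ascending control and 8.41% ± 3.3 in descending control. Without replicate 3 it was 10.3% ± 0.32 in descending control (SD, n = 2). Among the receptors *Rarg* held 68.5 to 79.4% of the summed level in the group means. *Rarb* held 0.132% in descending control (0.198% without replicate 3) and 4.53% in ascending TGFβ.

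With TGFβ, retinoid genes moved in both directions in ascending fibroblasts. *Rarb* rose 7.66-fold and *Crabp2*, which delivers retinoic acid to the nucleus, rose 3.46-fold. *Cyp26b1*, which clears retinoic acid, fell 2.10-fold, and *Aldh1a3*, *Aldh1a1* and *Rarg* fell 1.95-fold, 1.54-fold and 1.3-fold. In all, 3 of the 9 genes were called higher and 5 lower (edgeR's quasi-likelihood F-test, two-sided, Benjamini-Hochberg adjusted p under 0.05 over all genes tested). Of all 13917 genes tested there, 55.8% were called, 28.2% higher and 27.6% lower, so a call was common among genes of any kind. The control and TGFβ libraries did not overlap for 7 of the 9 genes and for 61.4% of all genes tested. The median log2 fold change of the 9 genes was -0.19 and that of all genes tested was 0.00 to 2 decimals, while the median size without sign was 0.62 for the 9 and 0.28 for all.

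In descending fibroblasts, *Cyp26b1* fell 3.93-fold and *Aldh1a2* fell 2.54-fold with TGFβ, and these were the members called with all libraries, 0 higher and 2 lower, where 8.07% of 13825 genes tested were called, 3.59% higher and 4.48% lower. Without descending control replicate 3, 5 members were called higher and 4 lower, where 52.9% of 14311 genes were called, 26.6% higher and 26.3% lower. Without that library the largest changes were those of *Crabp2*, 9.68-fold higher, and *Rarb*, 6.83-fold higher. The groups did not overlap for 7 of the 9 genes with all libraries, against 43.6% of all genes tested, and for 8 of the 9 without replicate 3, against 67.2%. The number of calls in descending fibroblasts therefore rested on that library. With any single one of the remaining 5 libraries dropped in its place 0 or 1 member was called. In those fits 213 to 474 genes were called, of 14034 to 14344 tested.

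**Figure D2:**
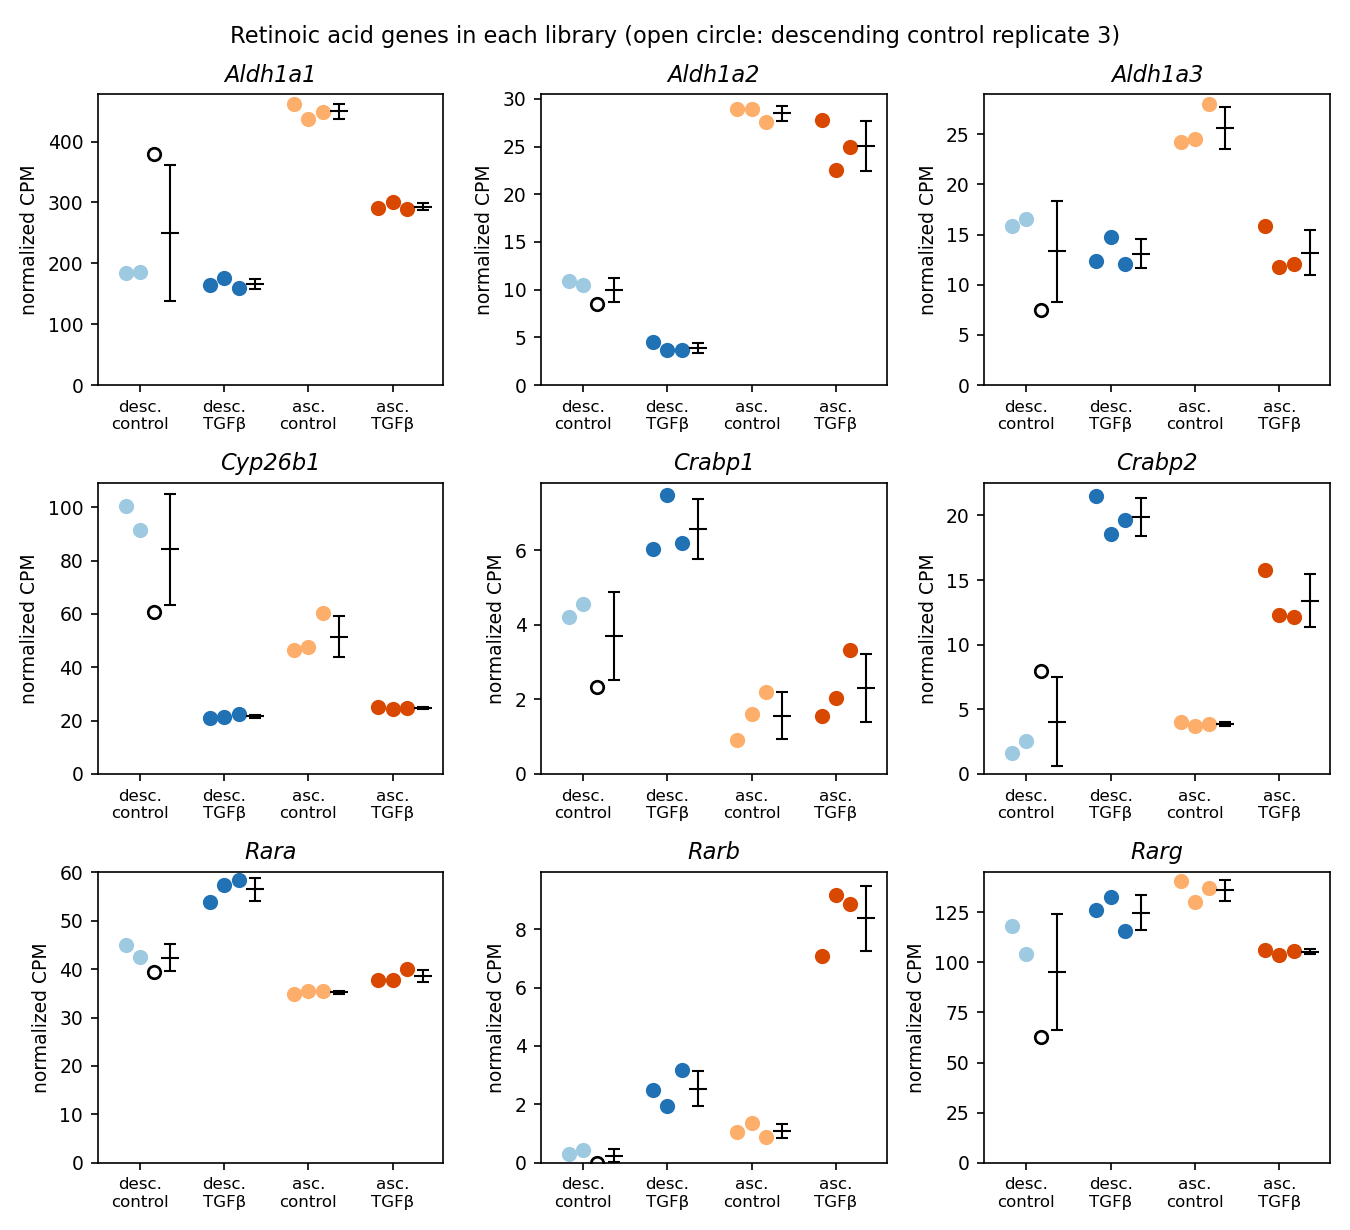
Normalized CPM of each gene by library, with the group mean and SD in black (n = 3) and descending control replicate 3 as an open circle. *Rarb* and *Crabp2* are higher in every TGFβ library than in every control library of the same site, and *Cyp26b1* is lower. *Aldh1a2* is between 22.6 and 28.9 CPM in ascending and at or below 10.9 CPM in descending libraries.

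Of the enzymes that make retinoic acid, *Aldh1a1* (chr19:20492715-20643465, plus strand) is the cytosolic retinal dehydrogenase of many adult tissues. It stood at 462, 438 and 449 CPM in the ascending control libraries 1 to 3 and at 290.3, 299.8 and 289 CPM with TGFβ. In the descending control libraries it stood at 184, 186 and 379 CPM, and with TGFβ at 164, 175 and 160.1 CPM. The first 2 descending controls lay just above the TGFβ libraries and replicate 3 far above both. The log2 fold change with TGFβ was -0.62 (SE 0.031, adjusted p = 2.62e-11) in ascending fibroblasts, -0.59 (SE 0.31, adjusted p = 0.315) in descending fibroblasts, and -0.15 (SE 0.052, adjusted p = 0.0154) in descending fibroblasts without replicate 3. The call in ascending fibroblasts was lost in 1 of 12 alternatives, that with all 12 libraries fitted together (adjusted p = 0.105). Of its 50-base exon sequences, 3.06% also occur in another gene, mostly its paralog *Aldh1a7*. *Aldh1a7* counts were 111 to 1404 per library, against 3213 to 10631 for *Aldh1a1*, and its own log2 fold change in ascending fibroblasts was -1.84 (SE 0.056).

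*Aldh1a2* (chr9:71215789-71296243, plus strand) was the enzyme that differed most between the sites. It stood at 28.9, 28.9 and 27.6 CPM in ascending control and at 27.8, 22.6 and 24.9 CPM in ascending TGFβ. In descending fibroblasts it stood at 10.9, 10.5 and 8.48 CPM in control and at 4.54, 3.63 and 3.64 CPM with TGFβ. Control and TGFβ libraries overlapped in ascending fibroblasts and were apart in descending fibroblasts, replicate 3 included. The log2 fold change with TGFβ was -1.34 (SE 0.22, adjusted p = 0.0184) in descending fibroblasts and -1.44 (SE 0.15, adjusted p = 1.74e-09) without replicate 3. In ascending fibroblasts it was -0.19 (SE 0.072, adjusted p = 0.0328), a call that 6 of 12 alternative analyses did not keep. The call in descending fibroblasts was also lost, with a highest adjusted p of 0.132, when any one library other than replicate 3 was left out, with the log2 fold change between -1.45 and -1.27. It was lost as well without a filter on low counts and with the replicate number as a block.

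*Aldh1a3* (chr7:66390890-66427517, minus strand), a further retinal dehydrogenase, stood at 24.2, 24.5 and 28.0 CPM in ascending control and at 15.8, 11.8 and 12.0 CPM in ascending TGFβ. Descending control gave 15.9, 16.6 and 7.51 CPM, the last in replicate 3, and TGFβ 12.4, 14.7 and 12.1 CPM. The fall in ascending fibroblasts was -0.96 on the log2 scale (SE 0.10, adjusted p = 3.83e-07) and was called in all 12 alternatives. In descending fibroblasts the log2 fold change was -0.04 (SE 0.32, adjusted p = 0.960), and -0.31 (SE 0.11, adjusted p = 0.0159) without replicate 3, the one library that lay below the TGFβ libraries. With TGFβ the sites reached nearly the same level.

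*Cyp26b1* (chr6:84571414-84593908, minus strand) is a cytochrome P450 that hydroxylates retinoic acid and so lowers its level in the cell that expresses it. It stood at 46.5, 47.7 and 60.5 CPM in ascending control and at 25.0, 24.3 and 24.6 CPM in ascending TGFβ. In descending control it stood at 100.4, 91.5 and 60.8 CPM, and with TGFβ at 21.1, 21.2 and 22.3 CPM. At both sites the TGFβ libraries lay close together and well below every control library. With TGFβ the log2 fold change was -1.07 (SE 0.084, adjusted p = 1.03e-08) in ascending fibroblasts and -1.97 (SE 0.21, adjusted p = 0.00537) in descending fibroblasts, or -2.15 (SE 0.068, adjusted p = 1.83e-21) without replicate 3. The call in ascending fibroblasts held in all 12 alternatives. The call in descending fibroblasts held in 9 of 13. Leaving out any 1 of the TGFβ libraries ended it, with a highest adjusted p of 0.0572, as did the replicate number as a block (adjusted p = 0.0654). *Cyp26b1* was the one CYP26 gene with counts to speak of: *Cyp26a1* had 0 or 1 count and *Cyp26c1* 0 to 2 counts in each library, all at or below the floor.

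Of the binding proteins, *Crabp2* (chr3:87948666-87953376, plus strand) passes retinoic acid to its receptors. It stood at 4.0, 3.69 and 3.85 CPM in ascending control and at 15.8, 12.3 and 12.1 CPM in ascending TGFβ. The descending controls were at 1.59, 2.56 and 8.0 CPM, and with TGFβ at 21.5, 18.6 and 19.6 CPM. Replicate 3 lay several-fold above the other descending controls and still below every TGFβ library. Its log2 fold change was 1.79 (SE 0.14, adjusted p = 8.80e-09) in ascending fibroblasts. In descending fibroblasts it was 2.31 (SE 0.61, adjusted p = 0.0814), which did not pass, and 3.27 (SE 0.16, adjusted p = 6.10e-17) without replicate 3.

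*Crabp1* (chr9:54764748-54773110, plus strand), the cytosolic binding protein thought to hold retinoic acid outside the nucleus, was a low gene with 21 to 138 counts per library. It stood at 0.912, 1.60 and 2.19 CPM in ascending control and at 1.57, 2.03 and 3.31 CPM in ascending TGFβ, with overlap. The descending controls were at 4.20, 4.55 and 2.34 CPM, and with TGFβ at 6.02, 7.48 and 6.19 CPM, without overlap. The log2 fold change was 0.56 (SE 0.33, adjusted p = 0.158) in ascending fibroblasts and 0.81 (SE 0.32, adjusted p = 0.189) in descending fibroblasts, neither of them called. The ascending value rested on single libraries: it was 0.21 without ascending TGFβ replicate 3, 0.28 without ascending control replicate 1 and 0.89 without ascending control replicate 3, with adjusted p of 0.651, 0.497 and 0.0543. In descending fibroblasts the value without control replicate 3 was 0.59 (SE 0.17, adjusted p = 0.00370). It was the one member not called in ascending fibroblasts.

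Of the receptors, *Rarb* (chr14:16430839-16819156, minus strand), the gene with the DR5 element printed above, stood at 1.04, 1.35 and 0.876 CPM in ascending control and at 7.10, 9.17 and 8.86 CPM in ascending TGFβ. In descending control it stood at 0.311 and 0.433 CPM in replicates 1 and 2 and had 0 counts in replicate 3, which allows up to 0.207 CPM there, and with TGFβ it stood at 2.5, 1.95 and 3.17 CPM. Every TGFβ library lay above every control library, at both sites. With TGFβ the log2 fold change was 2.94 (SE 0.20, adjusted p = 1.86e-09) in ascending fibroblasts and was called in all 12 alternatives. In descending fibroblasts it was 3.25 (SE 0.96, adjusted p = 0.104), which did not pass, and 2.77 (SE 0.38, adjusted p = 3.08e-07) without replicate 3, on 8 and 10 counts in the remaining control libraries.

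The *Rarb* exons overlap those of *Top2b*, a gene on the opposite strand, over 1793 of 5265 bases. The sources used here do not say whether counting used strand, so reads of the pair cannot be told apart in that stretch. *Top2b* had 2925 to 7627 counts per library against 0 to 194 for *Rarb*, and it fell with TGFβ in ascending fibroblasts, by 0.22 on the log2 scale (SE 0.039, adjusted p = 0.000130), where *Rarb* rose. *Top2b* had its highest count, 7627, in the library in which *Rarb* had 0.

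*Rarg* (chr15:102234938-102257517, minus strand), the most abundant receptor, had log2 fold changes of opposite sign at the sites. The one in descending fibroblasts was called only once replicate 3 was left out. It stood at 141, 130.1 and 137 CPM in ascending control and at 106, 104 and 106 CPM in ascending TGFβ. In descending control it stood at 118, 104 and 62.5 CPM, and with TGFβ at 126, 133 and 115 CPM. The ascending groups were apart, and in descending fibroblasts the control replicate 1 lay within the range of the TGFβ libraries. Its log2 fold change was -0.38 (SE 0.039, adjusted p = 4.10e-07) in ascending fibroblasts, a call lost in 1 of 12 alternatives, all 12 libraries in one fit (adjusted p = 0.236). In descending fibroblasts it was 0.39 (SE 0.24, adjusted p = 0.397), and 0.17 (SE 0.061, adjusted p = 0.0228) without replicate 3.

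*Rara* (chr11:98927818-98974942, plus strand), the broadly expressed receptor, changed least in ascending fibroblasts. It stood at 34.8, 35.4 and 35.4 CPM in ascending control and at 37.8, 37.8 and 40.1 CPM in ascending TGFβ. In descending control it stood at 45, 42.6 and 39.4 CPM, and with TGFβ at 53.8, 57.3 and 58.4 CPM, without overlap. The log2 fold change of 0.13 in ascending fibroblasts (SE 0.051, adjusted p = 0.0460) lost its call in 10 of 12 alternatives, while that in descending fibroblasts was 0.41 (SE 0.12, adjusted p = 0.0956), and 0.37 (SE 0.067, adjusted p = 2.51e-05) without replicate 3.

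**Figure D3:**
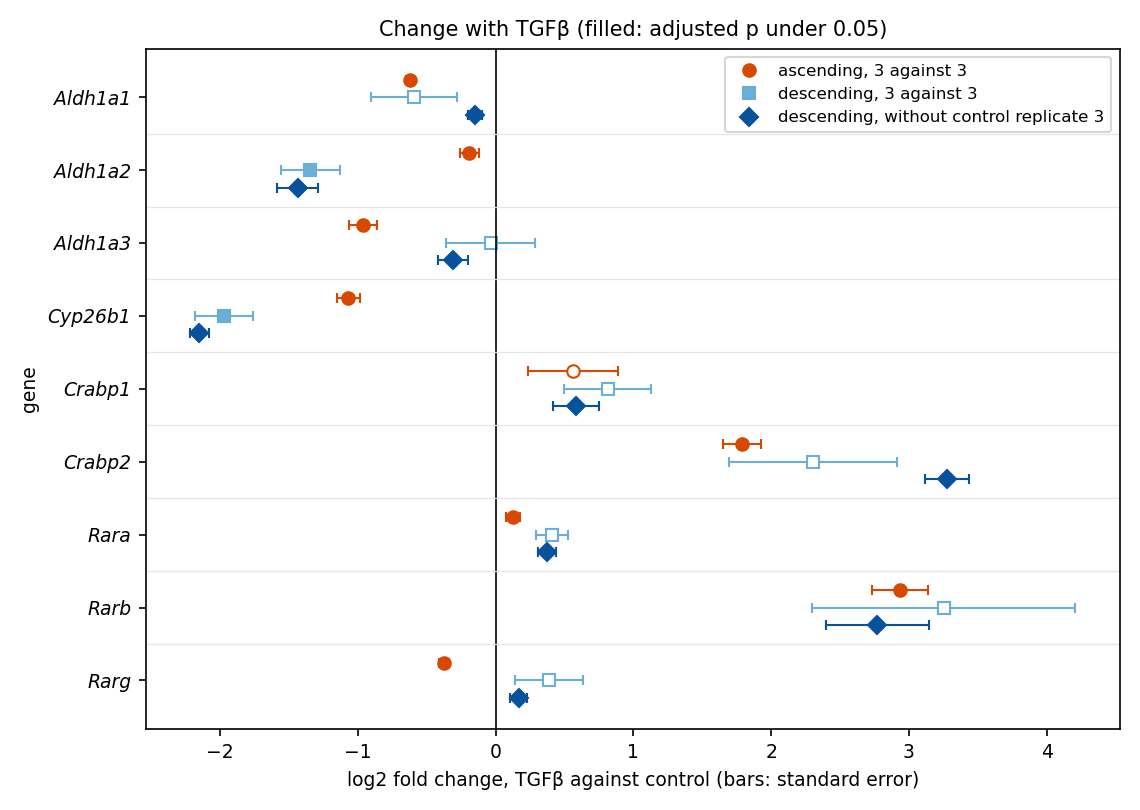
Log2 fold change with TGFβ of the 9 genes in ascending fibroblasts, in descending fibroblasts with 3 libraries per group, and in descending fibroblasts without control replicate 3; bars are standard errors and filled symbols passed an adjusted p of 0.05. *Aldh1a2* fell further in descending fibroblasts (-1.34) than in ascending ones (-0.19), and *Rarb* lay between 2.77 and 3.25 in all 3 fits.

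Whether the response to TGFβ differed between the sites was tested directly, as the interaction of site and treatment over all 12 libraries. *Aldh1a2* was the 1 member called, with 1 higher and 0 lower, where 0.806% of 14637 genes tested were called, 0.321% higher and 0.485% lower. Its log2 fold change with TGFβ was 1.16 more positive in ascending than in descending fibroblasts (SE 0.20, adjusted p = 0.0253), that is, it fell less there. Without descending control replicate 3 that difference was 1.25 (SE 0.15, adjusted p = 1.16e-06). The call with all libraries was lost in 10 of 18 alternatives, with the value between 1.07 and 1.27 throughout.

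Without replicate 3, 2 members were called higher and 4 lower in the interaction, where 13.5% of 15013 genes were called, 6.07% higher and 7.40% lower. *Cyp26b1* had a difference of 1.09 (SE 0.12, adjusted p = 3.12e-07), having fallen less in ascending fibroblasts. *Crabp2* had a difference of -1.48 (SE 0.23, adjusted p = 4.64e-05), having risen less there. *Aldh1a1*, *Aldh1a3* and *Rarg* had differences of -0.47 (SE 0.058), -0.65 (SE 0.15) and -0.54 (SE 0.077), with adjusted p of 2.20e-06, 0.00473 and 1.73e-05. With all libraries these 5 genes had adjusted p of 0.152 (*Cyp26b1*), 0.726 (*Crabp2*), 0.965 (*Aldh1a1*), 0.421 (*Aldh1a3*) and 0.311 (*Rarg*). *Rarb* had a difference of 0.17 without replicate 3 (SE 0.49, adjusted p = 0.888) and of -0.27 with it (SE 0.68, adjusted p = 0.856). These standard errors were several times those of *Aldh1a2*, on the low *Rarb* counts of the descending controls.

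Between the sites without TGFβ, all 3 retinal dehydrogenases were called higher in ascending fibroblasts, and *Cyp26b1* and *Crabp1* lower, once replicate 3 was left out. With all libraries *Aldh1a2* alone was called, 2.87-fold higher in ascending control, so 1 member was higher and 0 lower where 2.65% of 14090 genes were called, 1.19% higher and 1.47% lower. Its log2 fold change was 1.52 (SE 0.15, adjusted p = 0.00883). The call was lost when any 1 of the ascending controls or descending control replicate 2 was left out, with a highest adjusted p of 0.0967. With the replicate number as a block it was lost too (adjusted p = 0.115). In the fit without replicate 3 the value was 1.42 (SE 0.079, adjusted p = 8.02e-09).

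Without replicate 3, 6 members were called higher and 3 lower in ascending control, where 31.6% of 14644 genes were called, 16.4% higher and 15.2% lower. *Aldh1a1* was 2.45-fold higher (log2 fold change 1.29, SE 0.040, adjusted p = 2.23e-11) and *Aldh1a3* 1.59-fold higher (0.67, SE 0.085, adjusted p = 3.56e-05). *Rarb* was 2.93-fold higher (1.55, SE 0.43, adjusted p = 0.0147) on the low counts given above, and *Rarg* 1.23-fold higher (0.30, SE 0.059, adjusted p = 0.00138). *Cyp26b1* was 1.85-fold lower (-0.89, SE 0.092, adjusted p = 4.92e-06), *Crabp1* 2.78-fold lower (-1.48, SE 0.28, adjusted p = 0.00115) and *Rara* 1.23-fold lower (-0.30, SE 0.058, adjusted p = 0.00115). *Crabp2* turned direction with that library: it was 1.88-fold higher in ascending control without it (0.91, SE 0.23, adjusted p = 0.00882) and had a log2 fold change of -0.07 with it (SE 0.62, adjusted p = 0.962). The site groups did not overlap for 8 of the 9 genes with all libraries, against 35.3% of all genes tested, and for 9 of 9 without replicate 3, against 54.4%. The adjusted p of the 8 members not called with all libraries lay between 0.245 and 0.962.

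With TGFβ, a comparison in which descending control took no part, 4 members were higher and 4 lower in ascending than in descending fibroblasts, and 36.3% of 13678 genes were called, 18.1% higher and 18.2% lower. *Aldh1a2* was 6.37-fold higher (log2 fold change 2.67, SE 0.12, adjusted p = 2.20e-17), *Rarb* 3.28-fold higher (1.71, SE 0.17, adjusted p = 2.61e-09) and *Aldh1a1* 1.76-fold higher (0.82, SE 0.041, adjusted p = 5.15e-16). *Crabp1* was 2.82-fold lower (-1.50, SE 0.20, adjusted p = 4.72e-07), *Crabp2* 1.49-fold lower (-0.57, SE 0.099, adjusted p = 2.62e-05), *Rara* 1.46-fold lower (-0.55, SE 0.055, adjusted p = 2.71e-09) and *Rarg* 1.18-fold lower (-0.24, SE 0.047, adjusted p = 0.000108). *Cyp26b1* was 1.14-fold higher (0.19, SE 0.072, adjusted p = 0.0366), a call that 8 of 12 alternatives did not keep. With all 12 libraries in one fit, the calls of *Aldh1a1*, *Rarb*, *Crabp2* and *Rarg* were also lost, with adjusted p of 0.0618, 0.0522, 0.720 and 0.713. *Aldh1a3* had a log2 fold change of 0.02 (SE 0.11, adjusted p = 0.934). The groups did not overlap for 8 of the 9 genes and for 46.1% of all genes tested. The comparisons share libraries, since each control and each TGFβ library enters both a site and a treatment comparison.

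**Figure D4:**
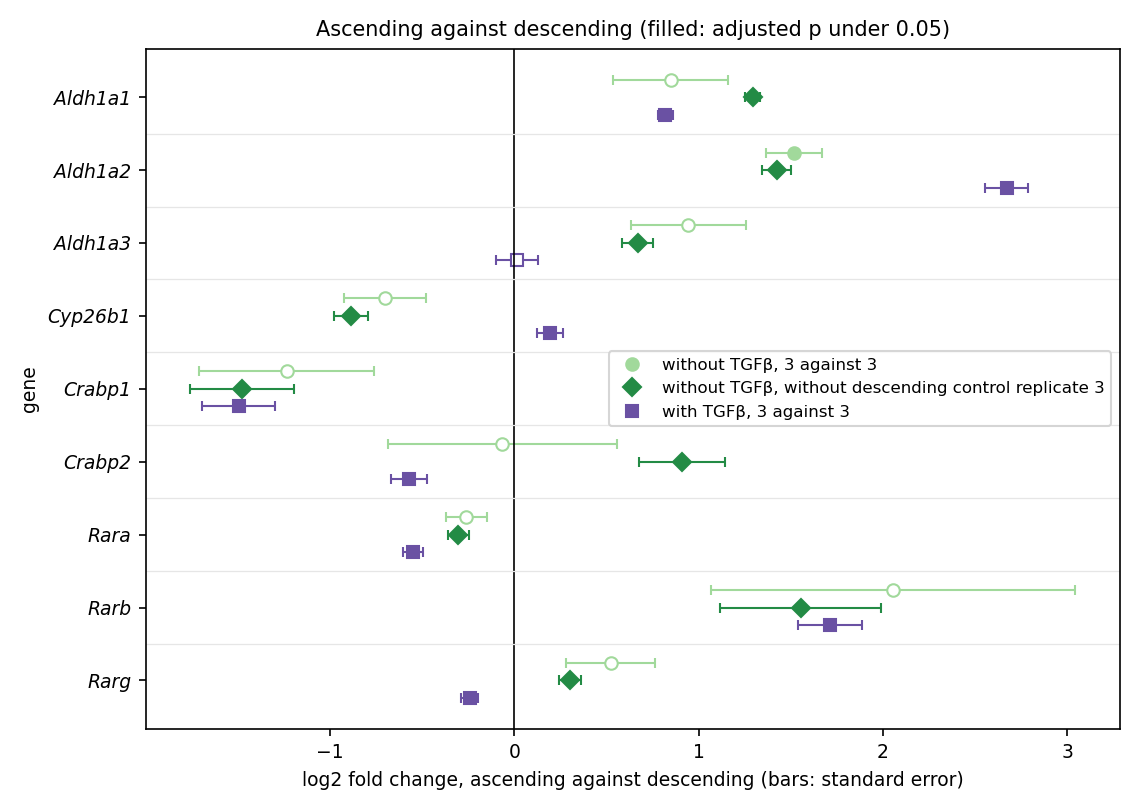
Log2 fold change of ascending against descending fibroblasts for the 9 genes, without TGFβ with 3 libraries per group, without TGFβ and without descending control replicate 3, and with TGFβ; bars are standard errors and filled symbols passed an adjusted p of 0.05. *Aldh1a2* is filled in all 3 fits at 1.52, 1.42 and 2.67, and *Crabp2* changes sign between them.

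Markers of other cell types differed with site and treatment as well. Of 6 mesothelial and epicardial markers (*Upk3b*, *Upk1b*, *Msln*, *Wt1*, *Lrrn4*, *Krt19*), 5 were above the floor in all ascending control libraries, and their summed level was 85.3 to 101 CPM in ascending control, 48.6 to 57.9 in ascending TGFβ, 23.2 to 25.1 in descending control and 26.4 to 28.9 in descending TGFβ. *Upk3b* was at 29.0 to 37.0 CPM in ascending control and at most 1.60 CPM in descending control, and *Krt19* was lower in ascending libraries, at 3.40 to 4.17 CPM against 6.89 to 13.3. The defining marker *Wt1* was at or below the floor in all 12 libraries. *Aldh1a2* was higher in the ascending groups, where this sum was higher, and changed little with TGFβ there while the sum was lower. In descending fibroblasts *Aldh1a2* fell 2.54-fold with TGFβ while the sum was slightly higher. The summed level of 4 adipocyte markers (*Adipoq*, *Plin1*, *Fabp4*, *Cidec*) was 75.5 to 109 CPM in descending control, 25.0 to 45 in descending TGFβ, 4.08 to 14.6 in ascending control and 2.19 to 2.60 in ascending TGFβ. The 109 CPM was replicate 3, where *Fabp4* stood at 82.0 CPM against 52.8 to 53.3 in the other descending controls. Descending control was the highest group for this sum and for *Cyp26b1*. The groups below it differed in order: the sum was higher in descending TGFβ than in ascending control, while *Cyp26b1* was lower, at 21.6 against 51.6 CPM. Macrophage markers, 5 of 5 above the floor in ascending control, ranged from 51 to 341 CPM there and from 13.5 to 44.9 CPM in the 2 descending groups, with 28.4 to 40.2 CPM in ascending TGFβ, most of it *Lyz2*. The upper end in ascending control came from a single library, which held 5836 of the 7600 *Lyz2* counts of that group. The 5 smooth muscle markers (*Myh11*, *Cnn1*, *Acta2*, *Tagln*, *Smtn*), several of which activated fibroblasts also express, summed to 1534 to 2513 CPM in control and 5052 to 8319 CPM in TGFβ libraries. *Acta2* made up almost all of that sum, at 1423 to 2346 CPM in control and 4895 to 8044 CPM in TGFβ libraries, while *Myh11* was lower with TGFβ in ascending fibroblasts, at 12.5 to 17.6 CPM against 23.2 to 25.5. The 5 endothelial markers summed to 23.9 to 26.9 CPM in control libraries of both sites, to 9.08 to 11.1 in descending TGFβ and to 4.54 to 5.72 in ascending TGFβ. *Tek* carried nearly all of it, at 23.5 to 25.7 CPM in control and 3.6 to 9.27 CPM in TGFβ libraries; *Tie1* had 0 counts throughout, *Pecam1* and *Cdh5* stood at most at 0.300 CPM, and *Kdr* was higher with TGFβ in descending fibroblasts, at 1.22 to 1.61 against at most 0.954 CPM. The 4 Schwann and neural crest markers summed to 14.7 to 24.7 CPM in descending control, 10.8 to 12.1 in descending TGFβ, 21.4 to 25.9 in ascending control and 14.9 to 15.7 in ascending TGFβ, most of it *S100b*, at 8.57 to 24.7 CPM. The 24.7 CPM in descending control was *S100b* in replicate 3, against 14.0 to 16.1 CPM of *S100b* in the other libraries of that group. Of these markers *Sox10* had 0 counts in all 6 descending libraries, which allows up to 0.207 CPM, and stood at 1.70 to 2.87 CPM in the ascending ones. Of the 4 cardiomyocyte markers, *Tnnt2* alone was above the floor in ascending libraries, at 5.79 to 7.74 CPM in control and 3.26 to 3.70 with TGFβ, against at most 1.42 in the descending groups; *Myh6* had 0 counts in all 12 libraries, and *Actc1* and *Nppa* stood at most at 0.477 and 0.156 CPM, both in descending control. The part of such cells in the values of the retinoid genes was not tested.

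Beyond the 9 genes, 42 further genes of the retinoid pathway were examined, of which 27 to 31 passed the filter in a given comparison. With TGFβ, 4 were called higher and 14 lower of 29 tested in ascending fibroblasts, where 28.2% of all genes tested were called higher and 27.6% lower. In descending fibroblasts 1 was called higher and 3 lower of 29, where 8.07% of all genes were called, or 6 and 9 of 30 without replicate 3, where 52.9% were. Their median log2 fold change in ascending fibroblasts was -0.11. Between the sites without TGFβ, 2 were higher and 1 lower of 29, where 2.65% of all genes were called, or 5 and 7 of 29 without replicate 3, where 31.6% were. With TGFβ, 7 were higher and 9 lower of 27 between the sites, where 36.3% of all genes were called. In the interaction, 0 were called higher and 1 lower of 29, where 0.806% of all genes were called, or 2 and 5 of 31 without replicate 3, where 13.5% were.

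Of the 14 retinol and retinal redox enzymes 12 were tested for the TGFβ response, and in ascending fibroblasts 0 were called higher and 6 lower, where 55.8% of all genes tested were called, 27.6% lower. In descending fibroblasts 0 were called higher and 1 lower, where 8.07% of all genes were called. Without replicate 3 these counts were 2 higher and 5 lower, where 52.9% of all genes were called. *Adh1*, a retinol dehydrogenase, fell by 3.22 (SE 0.30, adjusted p = 8.16e-08) in ascending and by 3.66 (SE 0.40, adjusted p = 0.00559) in descending fibroblasts, to 0.292 to 0.705 CPM with TGFβ. Without replicate 3 its fall in descending fibroblasts was -3.33 (SE 0.26, adjusted p = 3.94e-12). *Adh7*, another alcohol dehydrogenase of retinol, fell by 2.16 (SE 0.30, adjusted p = 9.94e-06) in ascending fibroblasts.

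*Rdh10*, the main embryonic retinol dehydrogenase, was lower in ascending than in descending control without replicate 3, at -1.31 (SE 0.12, adjusted p = 1.42e-06), and its change with TGFβ was more positive in ascending fibroblasts by 0.67 (SE 0.16, adjusted p = 0.00555) in the same setting. With all libraries these values of *Rdh10* were -0.98 (SE 0.40, adjusted p = 0.391) and 0.34 (SE 0.43, adjusted p = 0.738), and neither was called. *Dhrs3*, which turns retinal back to retinol, moved the other way: without replicate 3 it rose in descending fibroblasts by 0.50 (SE 0.060, adjusted p = 2.89e-08), and the interaction was -0.81 (SE 0.075, adjusted p = 3.39e-08). With all libraries these values of *Dhrs3* were 0.93 (SE 0.56, adjusted p = 0.374) and -1.24 (SE 0.60, adjusted p = 0.522), again not called. *Dhrs9*, a further retinol dehydrogenase, had 0 to 35 counts per library, and without replicate 3 fell in descending fibroblasts by 1.26 (SE 0.45, adjusted p = 0.0202), against a log2 fold change of -0.70 (SE 1.2, adjusted p = 0.765) with it. *Fabp5*, which can carry retinoic acid to the receptor PPARδ, was lower in ascending than in descending TGFβ at -1.76 (SE 0.044, adjusted p = 6.44e-23), with 66.2 to 70.1 CPM against 224 to 240 CPM. Of the partner receptors *Rxra* stood at 47.9 to 85.7 CPM and *Rxrb* at 5.38 to 32.0 CPM, the lowest of each in descending control replicate 3, while *Rxrg* had at most 4 counts in a library.

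Of 11 genes known to be induced by retinoic acid in other cells, 8 were tested for the TGFβ response, and in ascending fibroblasts 2 were called higher and 5 lower, against 28.2% and 27.6% of all genes tested. *Tgm2*, a transglutaminase that TGFβ is also known to induce, rose by 0.97 (SE 0.050, adjusted p = 4.14e-11) in ascending and by 3.52 (SE 0.45, adjusted p = 0.00977) in descending fibroblasts. It stood at 4.96 to 15.6 CPM in descending control and 65.3 to 67.4 CPM in ascending control, and at 124 to 147 CPM in all TGFβ libraries, and the interaction was -2.55 (SE 0.44, adjusted p = 0.0255). Without replicate 3 the rise in descending fibroblasts was 3.17 (SE 0.074, adjusted p = 1.17e-24) and the interaction -2.20 (SE 0.092, adjusted p = 3.03e-14). *Tgm2* was the one further gene called in the interaction with all libraries. *Rarres1* was called lower with TGFβ in both comparisons, and its log2 fold change in descending fibroblasts was -2.26 (SE 0.22, adjusted p = 0.00403), or -2.42 (SE 0.083, adjusted p = 1.30e-20) without replicate 3. *Rarres2*, which encodes the secreted protein chemerin, fell in ascending fibroblasts from 17 to 38 counts in control to 1 to 3 counts with TGFβ (adjusted p = 7.34e-06), against 18 to 32 counts in descending TGFβ. *Gprc5a* was higher in ascending control by 1.78 (SE 0.25, adjusted p = 0.0234), or 1.56 (SE 0.067, adjusted p = 6.06e-10) without replicate 3, and in ascending TGFβ by 0.82 (SE 0.071, adjusted p = 1.17e-10). *Meis2*, a homeobox cofactor, was higher in ascending TGFβ by 1.05 (SE 0.049, adjusted p = 1.06e-16). *Nrip1*, a corepressor of nuclear receptors, had an interaction of 0.39 (SE 0.13, adjusted p = 0.0494) without replicate 3 and of 0.66 (SE 0.27, adjusted p = 0.447) with it.

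The genes whose pattern was most like that of a member were listed for the 6 members with a called log2 fold change above 1 in size, by Pearson's r of log2 CPM over the 11 libraries other than descending control replicate 3. These values describe 4 groups of libraries more than 11 independent points, and no p is given. *Aldh1a2* was most like *Pcyt1b* (r = 0.991), *Rbpms* (0.990) and *Zfpm2* (0.988), the last encoding a partner of GATA factors. *Aldh1a1* was most like *Cavin2* (0.996), *Cobl* (0.994) and *Ptprf* (0.993), and *Cyp26b1* most like *Clk1* (0.990), *C1ra* (0.988) and *Yeats2* (0.988). *Rarb* was most like *Fxyd6* (0.993), *Fbxo40* (0.991) and *Pde5a* (0.991). *Crabp2* was most like *Wls* (0.991), *Ppp4r1* (0.991) and *Wwtr1* (0.989), the last encoding the cofactor TAZ, and *Crabp1* most like *4833412C05Rik* (0.965), *B3gnt5* (0.963) and *Edil3* (0.963). This ranking depended on leaving out replicate 3: over all 12 libraries 4 of the 18 genes listed stayed among the 3 most like their member, *Pcyt1b*, *C1ra*, *B3gnt5* and *Fbxo40*. Over all 12 the r of *Ptprf* was 0.485, that of *Clk1* 0.659, that of *Ppp4r1* 0.654 and that of *4833412C05Rik* 0.392.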

How the data were processed

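RNA of cultured fibroblasts was sequenced as paired-end reads in 12 libraries. Per the labels and the study's methods, the authors aligned reads to mm10, counted them per gene with featureCounts and deposited these raw counts unnormalized; STAR is named in the submitters' processing notes. Strand setting, multi-mapping rule and annotation are not given in the sources used here. Of the symbols, 22 were numbers and were kept.

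Groups followed the labels. Counts (16250126 to 23892943 per library) were tested in R 4.3.3 with edgeR 4.0.16: TMM normalization, filterByExpr (minimum count 10, minimum total 15) on the groups compared, the quasi-likelihood F-test, and Benjamini-Hochberg adjustment over all genes tested. Each comparison was fitted on its own groups, the interaction on all 12 libraries. SE was the log2 fold change divided by the square root of F. Exon lengths and coordinates came from GENCODE vM21 (GRCm38), promoters from RefSeq. The fit of each comparison with all libraries was checked on simulated counts in which 200 genes were changed. Their levels and spread came from the 11 libraries other than descending control replicate 3, so that library's departure was not simulated. The fits without it were not checked in this way. Figures used matplotlib 3.10.9.

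The members, the further retinoid genes and the markers were chosen with earlier results of these data known. All members are named; of the 42 further genes, the 3 called per direction with the largest log2 fold change in each comparison, with all libraries or without descending control replicate 3, are named, apart from some that are not reported here. *Rxra*, *Rxrb*, *Rxrg*, *Cyp26a1*, *Cyp26c1* and the neighbours *Top2b* and *Aldh1a7* were named after their values were seen.

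Alternatives were DESeq2 1.42.0, edgeR with size factors from DESeq2, the low count filter dropped or raised to 10 counts in every library, the replicate number as a block, a single fit of all 12 libraries, and leaving out each library in turn; DESeq2 without descending control replicate 3 was added after seeing the data.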

Additional observations from a re-analysis of the deposited data

Results flagged for a closer look

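The change with TGFβ differed between ascending and descending fibroblasts by a direct test of the interaction, edgeR's quasi-likelihood F-test, for 1 of the 9 genes with all libraries, where 0.806% of all genes tested were called, and for 6 of them without descending control replicate 3, where 13.5% were. *Aldh1a2* differed by 1.16 on the log2 scale with all libraries (adjusted p = 0.0253) and by 1.25 without that library (adjusted p = 1.16e-06), falling less in ascending fibroblasts. Without that library *Cyp26b1* also fell less in ascending fibroblasts, by 1.09 (adjusted p = 3.12e-07). *Crabp2* rose less in ascending fibroblasts, with a difference of -1.48 (adjusted p = 4.64e-05). *Aldh1a3* and *Aldh1a1* fell further in ascending fibroblasts, with differences of -0.65 (adjusted p = 0.00473) and -0.47 (adjusted p = 2.20e-06). *Rarg* had a difference of -0.54 (adjusted p = 1.73e-05), lower with TGFβ in ascending fibroblasts and higher with it in descending ones. The values without the library rest on 2 descending controls.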

How the results depend on the processing

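Of 609 values of single genes under an alternative, 488 kept direction and side of the threshold, 48 newly passed it, 56 no longer did and 17 changed sign. Descending control replicate 3 and the 3 libraries per group limit the comparisons that use descending control, and low counts limit *Rarb* and *Crabp1*. With at least 10 counts in every library, *Rarb* was not tested wherever replicate 3 entered. The causes were not tested.

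In ascending fibroblasts the TGFβ response fell from 7767 to 2338 genes and 4 members with all 12 libraries in one fit; that between sites with TGFβ fell from 4963 to 1106 genes and 3 members. In descending fibroblasts (1115 genes) the response had 2531 genes and 5 members by DESeq2 and 3570 genes and 5 members with all 12 libraries in one fit. Without a filter it had 1 member, with 391 genes higher and 471 lower of 24955 tested. By DESeq2 without replicate 3 it had 6582 genes and 8 members. Between sites without TGFβ (374 genes) the counts were 1151 genes by DESeq2, 1545 genes and 5 members with all 12 libraries in one fit, and 3804 genes and 9 members by DESeq2 without replicate 3. The interaction (118 genes) had 497 genes and 2 members by DESeq2, 56 genes and 0 members without a filter, and 1849 genes and 6 members by DESeq2 without replicate 3.

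With each library left out, members called ranged from 6 to 8 (7146 to 7427 genes) and from 7 to 8 (4340 to 4656 genes) in the ascending response and between sites with TGFβ, from 0 to 9 (213 to 7576 genes) in the descending response, from 0 to 9 (33 to 4631 genes) between sites without TGFβ, and from 0 to 6 (25 to 2022 genes) in the interaction; each upper end of the last 3 is without descending control replicate 3, and with that library kept the highest counts were 474, 108 and 131 genes.

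Changes of sign with one library left out came in ranges: *Aldh1a3* -0.31 to 0.16 in the descending response and -0.13 to 0.10 between sites with TGFβ, *Crabp2* -0.45 to 0.91 between sites without TGFβ, and in the interaction *Aldh1a1* -0.47 to 0.15, *Crabp1* -0.62 to 0.060 and *Rarb* -0.80 to 0.17. By DESeq2 without replicate 3, *Crabp2* was 0.91 between sites without TGFβ and *Rarb* 0.14 in the interaction.

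Samples share only a replicate number: of 18 same-numbered pairs, 0 had a correlation of deviations over 0.1 (from -0.026 to 0.088), and 6 correlated best with their own number. In descending control, where replicate 3 stood apart, the deviations mostly reflect that library, so pairs with that group could hardly show a pairing. With the replicate block, edgeR called 95 genes and 0 members in the descending response (2280 genes and 3 members at an unadjusted p under 0.05), 0 genes and 0 members between sites without TGFβ (1235 genes and 3 members), and 50 genes in the interaction; *Aldh1a3* was 0.039 in the descending response and *Crabp2* 0.28 between sites without TGFβ.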
